A study of Homo sapiens with 12 samples.

Results

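Protein arginine methyltransferases were followed by RNA sequencing in methionine-dependent HEK293T cells and in a methionine-independent derivative. The 9 genes were chosen by name: the 8 enzymes PRMT1, PRMT2, PRMT3, CARM1, PRMT5, PRMT6, PRMT7 and PRMT9, together with WDR77, which encodes the binding partner of PRMT5. They are 9 of the 23500 genes of the count table, and all 9 were among the 17162 genes that passed the filter on low counts and were tested. HEK293T is a human embryonic kidney line that does not grow when methionine is replaced by its precursor homocysteine. R1 is a clone derived from HEK293T cells that does grow under this replacement, so every R1 value describes 1 clone, and line and clone cannot be told apart. Both lines were kept for 12 h either in +Met medium, which contains methionine, or in −Met+Hcy medium, which lacks methionine and contains homocysteine. Each of the 4 groups (HEK293T +Met, HEK293T −Met+Hcy, R1 +Met and R1 −Met+Hcy) had 3 libraries of total RNA. The labels do not say whether these came from separate cultures, so the p-values measure the spread between these libraries, which may be technical.

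Arginine methyltransferases move methyl groups from S-adenosylmethionine (SAM), which cells make from methionine, to arginine residues of histones, RNA-binding proteins and ribosomal proteins. Type I enzymes (PRMT1, PRMT2, PRMT3, CARM1 and PRMT6) form monomethylarginine and asymmetric dimethylarginine. Type II enzymes (PRMT5 and PRMT9) form the symmetric dimethyl mark, and the type III enzyme PRMT7 stops at the monomethyl mark. The values here are transcript levels, and neither enzyme activity nor arginine methylation was measured.

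The libraries held 12664158 to 18771349 counts, and levels are given as CPM, the counts of a gene scaled to the same total in every library. R1 −Met+Hcy replicate 3 stood apart from the other 11 libraries. The chi-square per gene between replicates of a group, which sets their spread against counting noise, was 205 and 236 for its pairs with replicates 1 and 2. For all other pairs of replicates it ran from 7.13 to 90.1. Of the 9 genes, 7 had their lowest CPM of all 12 libraries in R1 −Met+Hcy replicate 3, at 21.0% to 62.1% of the mean of R1 −Met+Hcy replicates 1 and 2. PRMT3 was at 147% and PRMT9 at 95.6% of that mean, and these are the genes whose canonical transcripts have the lowest GC content of the 9 (38.2% and 40.7%, against 48.2% to 61.5% for the others). The part of GC content in these values was not tested gene by gene. How many of all genes had their lowest CPM in R1 −Met+Hcy replicate 3 was not counted. Values without this library are therefore given beside the main results. Fold changes come from edgeR with TMM scaling, in which the median gene of each comparison lay within 0.06 of 0 on the log2 scale. Scaling by library totals alone moved that median to 0.33 for the medium in HEK293T, to 0.37 for R1 against HEK293T in +Met and to −0.38 for the difference of the responses. CPM values carry this shift, and fold changes do not.

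**Figure D1:**
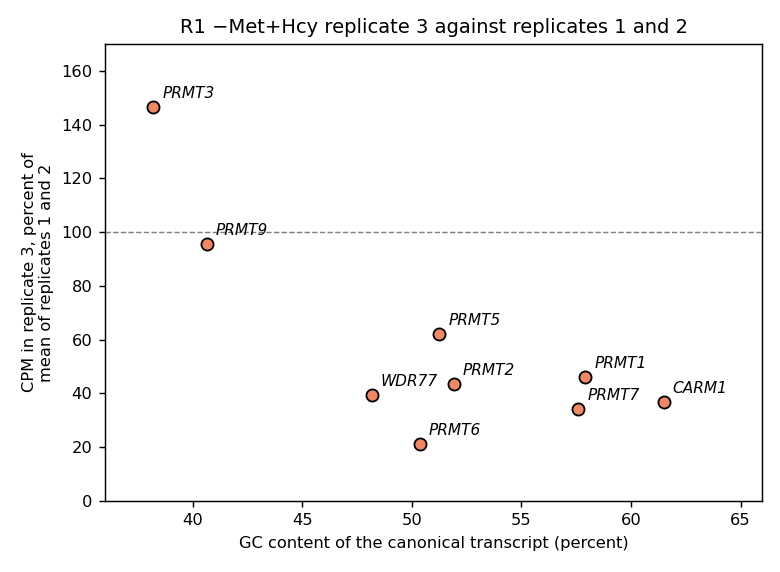
CPM of each of the 9 genes in R1 −Met+Hcy replicate 3, as a percent of the mean of replicates 1 and 2 (vertical axis), against the GC content of its canonical transcript in percent (horizontal axis). The dashed line is equality. PRMT3 and PRMT9, at the left, lie at 147% and 95.6%, and the other 7 genes lie at 62.1% or lower.

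Upstream sequences are shown for PRMT6, PRMT9 and CARM1, the genes that passed the test between the lines in −Met+Hcy medium. Each run is the 250 bases before a RefSeq start of the gene, read along the gene's strand in build GRCh38.p14. The windows are chr1:107056424-107056673 (plus strand) for PRMT6, chr4:147684164-147684413 (minus strand) for PRMT9 and chr19:10871303-10871552 (plus strand) for CARM1, and none of them touches an exon of its gene in GENCODE 44. Capitals mark matches on either strand to GGGCGG, the GC box of Sp-family factors.
PRMT6: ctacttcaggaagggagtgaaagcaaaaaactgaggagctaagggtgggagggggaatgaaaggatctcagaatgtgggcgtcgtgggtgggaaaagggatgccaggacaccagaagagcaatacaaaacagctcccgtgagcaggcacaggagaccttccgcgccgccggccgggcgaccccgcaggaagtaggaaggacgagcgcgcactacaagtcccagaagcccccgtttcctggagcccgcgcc
PRMT9: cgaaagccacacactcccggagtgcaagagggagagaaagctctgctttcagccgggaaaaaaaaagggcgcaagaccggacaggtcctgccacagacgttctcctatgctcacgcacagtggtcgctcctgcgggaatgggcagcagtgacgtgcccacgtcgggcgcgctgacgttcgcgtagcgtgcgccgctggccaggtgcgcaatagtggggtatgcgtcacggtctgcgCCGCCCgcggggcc
CARM1: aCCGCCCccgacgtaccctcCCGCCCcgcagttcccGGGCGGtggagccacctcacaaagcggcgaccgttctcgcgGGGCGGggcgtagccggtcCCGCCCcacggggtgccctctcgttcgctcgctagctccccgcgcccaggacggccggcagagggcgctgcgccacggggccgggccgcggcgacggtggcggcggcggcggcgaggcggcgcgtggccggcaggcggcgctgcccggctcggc
The CARM1 window shown held 5 GC boxes, the PRMT9 window 1 and the PRMT6 window none, and no 2 of the matches overlapped. CARM1 has another RefSeq window, not shown (chr19:10872179-10872428), which held 2 GC boxes. Among 35116 RefSeq promoter windows of this length, 42.6% held a GC box. By gene, 7 of the 9 genes held it in any of their windows. CARM1 and PRMT7 have more than a single window, so the count by gene and the share of windows are unlike units. CCAAT, found in 32.0% of all windows, was present 2 times in the PRMT1 window and 3 times in the PRMT5 window and in no other window of the 9 genes. The E-box CACGTG (6.34% of all windows) was found only in the PRMT3 window. Of the 250 bases, 198 in the PRMT1 window, 158 in the PRMT3 window and 32 in the PRMT5 window lie in GENCODE 44 exons of the same gene. The PRMT2 and PRMT7 windows also touch such exons. These windows are thus partly transcribed sequence in that annotation. TGATGNAA, the element that ATF4 with C/EBP partners binds, and TGACGTCA, the cyclic AMP response element, were found in none of the windows of the 9 genes (3.14% and 1.65% of all windows). A match is a description of letters and not a measured binding site.

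The 9 genes lie on 7 chromosomes, PRMT1 with CARM1 on 1 of them and PRMT6 with WDR77 on another. In GENCODE 44 (GRCh38) the type I genes are PRMT1 at chr19:49675786-49689029, PRMT2 at chr21:46635595-46665124, PRMT3 at chr11:20387558-20509338, CARM1 at chr19:10871553-10923075 and PRMT6 at chr1:107056674-107067636, all on the plus strand. The type II genes are PRMT5 at chr14:22920525-22929408 and PRMT9 at chr4:147637785-147684163, both on the minus strand. PRMT7 is at chr16:68310951-68360852 on the plus strand and WDR77 at chr1:111439890-111449256 on the minus strand.

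PRMT1 and PRMT5 made up most of the family's transcripts. Levels were compared between genes only after division by the length of the canonical transcript (CPM per kb). In HEK293T +Met, PRMT1, the main type I enzyme of most cells, stood at 369 ± 33.4 CPM per kb (SD, n = 3) and PRMT5 at 147 ± 10.3. WDR77 followed at 111 ± 7.05, PRMT3 at 58.7 ± 7.96 and CARM1 at 41.4 ± 3.06. PRMT7, PRMT2, PRMT6 and PRMT9 were between 6.33 and 18.9 CPM per kb, with PRMT9 the lowest. PRMT8, a brain-enriched relative of PRMT1 that is not among the 9 genes, had 0 counts in 9 of the 12 libraries. A count of 0 allows up to 0.163 to 0.237 CPM in these libraries, taking 3 counts as the limit (counting error only). The other 3 libraries held 1, 2 and 28 PRMT8 counts, and the 28 were in R1 −Met+Hcy replicate 3.

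The composition of the family was read from shares, which do not depend on the scaling of the libraries and on which no test was run. PRMT1 took 54.9% ± 2.69 (SD, n = 3) of the CPM per kb summed over the 8 enzymes in HEK293T +Met, 39.97% ± 2.80 in HEK293T −Met+Hcy, 42.0% ± 4.26 in R1 +Met and 37.2% ± 5.65 in R1 −Met+Hcy. The lowest HEK293T +Met library (51.8%) lay above every library of the other groups, of which the highest was 46.5%. The share of PRMT6 was 2.14% ± 0.0408 in HEK293T +Met and 8.91% ± 0.878 in HEK293T −Met+Hcy, with 3.999% ± 0.249 in R1 +Met and 4.49% ± 2.104 in R1 −Met+Hcy. PRMT2 held 2.24% to 3.998% of the sum in the 6 HEK293T libraries and 4.82% to 8.90% in the 6 R1 libraries, so the lines did not overlap in this share. A share also depends on the sum, which was 639 to 695 CPM per kb in HEK293T +Met and 247 in R1 −Met+Hcy replicate 3. In that library PRMT2 held 5.85% of the sum, although its CPM was the lowest of the 12 libraries. PRMT5 ranged from 19.8% to 28.9% over all 12 libraries.

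**Figure D2:**
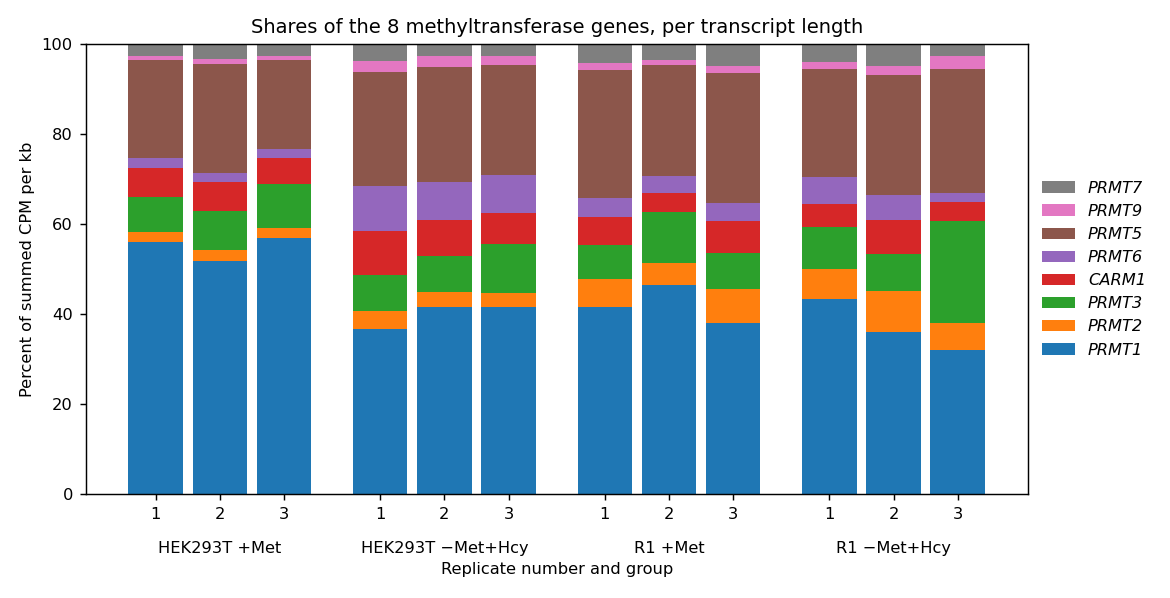
Share of each of the 8 methyltransferase genes in their summed CPM per kb (vertical axis, percent), with 1 stacked bar for each of the 12 libraries (horizontal axis, replicate number and group). PRMT1 takes at least 51.8% in the HEK293T +Met bars and at most 46.5% in the others, and the PRMT6 segment is widest in HEK293T −Met+Hcy.

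The level of each gene in each library is the base of the tests. In the plot of CPM by library, the media did not overlap in HEK293T for 7 of the 9 genes (all but PRMT3 and CARM1), against 48.4% of all genes. The lines did not overlap in +Met for 5 (PRMT1, PRMT2, CARM1, PRMT6 and WDR77), against 47.2% of all genes.

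**Figure D3:**
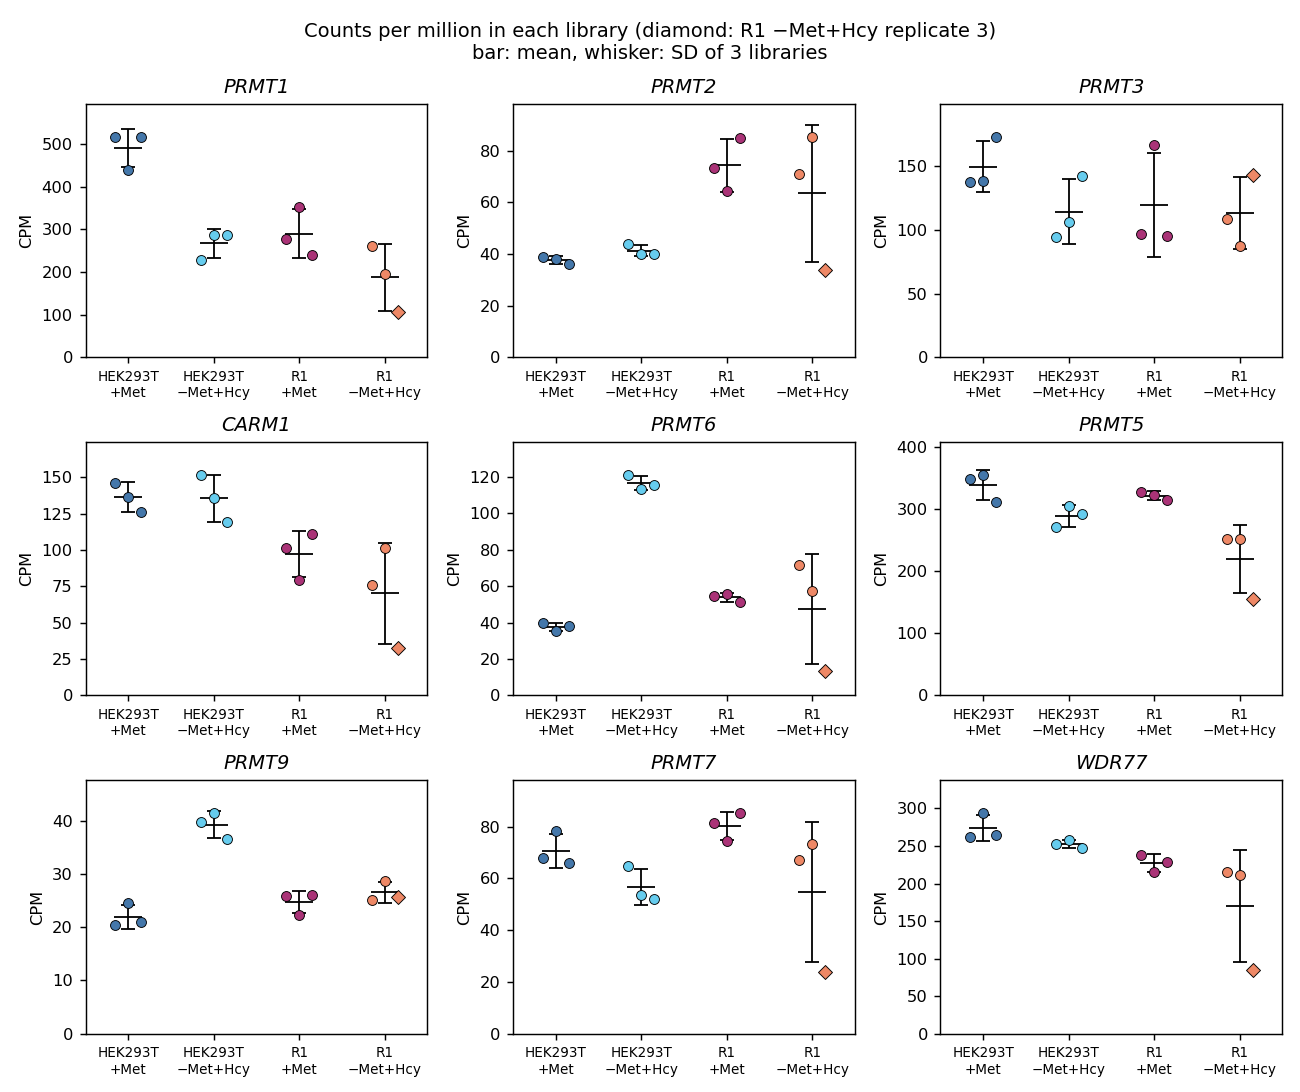
CPM of the 9 genes (vertical axes, each from 0) in the 4 groups (horizontal axes). Points are libraries, diamonds mark R1 −Met+Hcy replicate 3, bars are means and whiskers SDs of 3 libraries. PRMT6 and PRMT9 are highest in HEK293T −Met+Hcy, PRMT1 is highest in HEK293T +Met, and the diamond is the lowest point for all genes except PRMT3 and PRMT9.

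PRMT1, which methylates many RNA-binding proteins and a histone of the nucleosome core, was lower in HEK293T cells without methionine. Its level was 517, 439 and 516 CPM in the HEK293T +Met libraries and 227, 286 and 287 CPM in the HEK293T −Met+Hcy libraries. R1 held 277, 351 and 239 CPM in +Met and 261, 196 and 105 CPM in −Met+Hcy. All 3 HEK293T +Met libraries were above the other 9, and the other 3 groups overlapped with their neighbours in the order of means (R1 +Met, HEK293T −Met+Hcy, R1 −Met+Hcy). The log2 fold change in −Met+Hcy against +Met was −1.17 ± 0.27 (SE) in HEK293T (edgeR, Benjamini-Hochberg adjusted p = 0.0233). It was −1.11 ± 0.27 in R1 against HEK293T in +Met (edgeR adjusted p = 0.0218). These contrasts share the HEK293T +Met libraries. They were −1.17 ± 0.20 (edgeR adjusted p = 0.00116) and −1.11 ± 0.20 (edgeR adjusted p = 0.00127) without R1 −Met+Hcy replicate 3. In R1 the medium gave −0.62 ± 0.27 (edgeR adjusted p = 0.622), or −0.39 without that library. With library totals neither call held, at −0.88 (edgeR adjusted p = 0.0636) and −0.76 (edgeR adjusted p = 0.0878). The first call was also lost without HEK293T +Met replicate 1 or 3 or any 1 of the HEK293T −Met+Hcy libraries, at log2 fold changes of −1.25 to −1.04, and the second without HEK293T +Met or R1 +Met replicate 1 or 3 (−1.07 to −0.98). A replicate block ended the first call too. Over all alternatives the edgeR or DESeq2 adjusted p ran from 0.000332 to 0.101 for the first and from 0.00117 to 0.103 for the second.

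PRMT6, a nuclear enzyme that methylates histone tails, had the largest positive log2 fold change of the 9 genes for the medium in HEK293T cells. The HEK293T +Met libraries held 39.9, 35.6 and 37.8 CPM and the HEK293T −Met+Hcy libraries 121, 113 and 115 CPM. R1 held 54.8, 55.4 and 51.0 CPM in +Met and 71.7, 57.3 and 13.5 CPM in −Met+Hcy. HEK293T −Met+Hcy lay above all other libraries, R1 +Met lay above HEK293T +Met, and the R1 −Met+Hcy libraries spread over both sides of R1 +Met. The log2 fold change for the medium in HEK293T was 1.33 ± 0.38 and missed the threshold (edgeR adjusted p = 0.0578). Without R1 −Met+Hcy replicate 3 it was 1.33 ± 0.13 (edgeR adjusted p = 4.62e-05), and DESeq2 on all 12 libraries gave 1.32 ± 0.40 (adjusted p = 0.0105). The common dispersion, an estimate of spread shared by all groups, was 0.109 with that library and 0.0349 without it. Across its alternatives the adjusted p ran from 3.74e-05 to 0.172. Between the lines in −Met+Hcy, R1 was lower by a log2 fold change of −1.37 ± 0.38 (edgeR adjusted p = 0.0329), and by −0.96 ± 0.15 without R1 −Met+Hcy replicate 3 (edgeR adjusted p = 0.000492). That call was lost with library totals, with only the libraries compared, and without any 1 HEK293T −Met+Hcy library or R1 −Met+Hcy replicate 2 (log2 fold changes of −1.51 to −1.30, edgeR adjusted p = 0.0518 to 0.181). In +Met medium the log2 fold change was 0.16 ± 0.38 (edgeR adjusted p = 0.846), or 0.16 ± 0.13 without R1 −Met+Hcy replicate 3 (edgeR adjusted p = 0.379).

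CARM1, a coactivator that methylates histones and splicing factors, was lower in R1 cells than in HEK293T cells. It stood at 146, 136 and 126 CPM in HEK293T +Met and at 152, 136 and 119 CPM in HEK293T −Met+Hcy. In R1 the levels were 101, 79.7 and 111 CPM in +Met and 76.2, 102 and 32.8 CPM in −Met+Hcy. The 6 R1 libraries all lay below the 6 HEK293T libraries, while the media overlapped within each line. R1 against HEK293T gave −1.003 ± 0.28 in −Met+Hcy (edgeR adjusted p = 0.0320), or −0.71 ± 0.17 without R1 −Met+Hcy replicate 3 (edgeR adjusted p = 0.00893). That call was lost with library totals, with only the libraries compared, and without any 1 HEK293T −Met+Hcy library or R1 −Met+Hcy replicate 1 (−1.07 to −0.95, edgeR adjusted p = 0.0565 to 0.170). In +Met it gave −0.85 ± 0.28 (edgeR adjusted p = 0.0737), or −0.85 ± 0.15 without that library (edgeR adjusted p = 0.00139). Exons of YIPF2 on the opposite strand share 27.0% of the canonical CARM1 transcript, and the strand setting of the counting is not given in the sources used here, so reads of the shared part cannot be told apart.

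PRMT2, a type I enzyme with an SH3 domain that acts with nuclear receptors, stood higher in 5 of the 6 R1 libraries than in HEK293T. HEK293T cells held 36.1 to 43.8 CPM in both media and R1 cells 64.5 to 85.5 CPM in all libraries but R1 −Met+Hcy replicate 3, which was at 34.0 CPM. In the analysis reported, R1 against HEK293T gave 0.62 ± 0.23 in +Met (edgeR adjusted p = 0.114) and 0.57 ± 0.23 in −Met+Hcy (edgeR adjusted p = 0.126), neither past the threshold. Without that library both passed, at 0.62 ± 0.13 (edgeR adjusted p = 0.00298) and 0.82 ± 0.14 (edgeR adjusted p = 0.000929). Some alternatives with all libraries also called PRMT2 higher in R1. Library totals did so in +Met (0.98, edgeR adjusted p = 0.0330). Removal of the GC trend did so in +Met (0.56, edgeR adjusted p = 0.0208) and in −Met+Hcy (0.65, edgeR adjusted p = 0.00721). For the medium in HEK293T the sign depended on the scaling, at −0.16 with TMM and 0.13 with library totals. PRMT3, a cytosolic enzyme whose best known substrate is ribosomal protein S2, ranged from 87.5 to 173 CPM with overlap between all groups next to each other in the order of means. The medium in HEK293T gave −0.68 ± 0.31 (edgeR adjusted p = 0.223) and R1 against HEK293T in +Met −0.67 ± 0.31 (edgeR adjusted p = 0.194). Both kept their size and missed the threshold without R1 −Met+Hcy replicate 3 (edgeR adjusted p = 0.0630 and 0.0575). The first passed when the GC trend was removed (−0.70, edgeR adjusted p = 0.0320) and when only the libraries compared were fitted (edgeR adjusted p = 0.0165).

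PRMT5, the main type II enzyme, and its partner WDR77, needed for full PRMT5 activity, had no call in the analysis reported. PRMT5 stood at 350, 356 and 312 CPM in HEK293T +Met and at 271, 305 and 292 CPM in HEK293T −Met+Hcy. In R1 it was at 329, 323 and 315 CPM in +Met and at 251, 252 and 156 CPM in −Met+Hcy. The −Met+Hcy libraries were below the +Met libraries of the same line in both lines. The medium gave −0.52 ± 0.17 in HEK293T (edgeR adjusted p = 0.0897) and −0.53 ± 0.17 in R1 (edgeR adjusted p = 0.622), and without R1 −Met+Hcy replicate 3 −0.52 ± 0.12 (edgeR adjusted p = 0.00819) and −0.40 ± 0.14 (edgeR adjusted p = 0.569). WDR77 was at 262 to 294 CPM in HEK293T +Met, 247 to 258 in HEK293T −Met+Hcy, 215 to 238 in R1 +Met and 212 to 215 in R1 −Met+Hcy replicates 1 and 2, with 84.3 CPM in replicate 3. No 2 of its groups next to each other in the order of means overlapped. In +Met R1 against HEK293T gave −0.62 ± 0.24 for WDR77 (edgeR adjusted p = 0.125), or −0.62 ± 0.11 without that library (edgeR adjusted p = 0.00137). With all libraries and the GC trend removed, that contrast was called for WDR77 (−0.65, edgeR adjusted p = 0.0476) and PRMT5 (−0.47, edgeR adjusted p = 0.0271). PRMT5 was then also called lower for the medium in HEK293T (−0.60, edgeR adjusted p = 0.00988). With library totals R1 against HEK293T in +Met gave −0.073 for PRMT5 (edgeR adjusted p = 0.833) and −0.27 for WDR77 (edgeR adjusted p = 0.546). The medium in HEK293T gave −0.23 for PRMT5 under that scaling (edgeR adjusted p = 0.485). The ratio of WDR77 to PRMT5 per kb was 0.704 to 0.797 in HEK293T +Met, 0.792 to 0.874 in HEK293T −Met+Hcy, 0.624 to 0.681 in R1 +Met and 0.506 to 0.801 in R1 −Met+Hcy. PRMT5-AS1 exons on the opposite strand share 38.8% of the canonical PRMT5 transcript, and a lncRNA on the same strand shares 27.4% of that of WDR77, and neither has a row in the table used here.

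PRMT9, the other type II enzyme, which methylates the splicing factor SF3B2, was like PRMT6 highest in HEK293T −Met+Hcy. It held 20.4, 24.5 and 20.9 CPM in HEK293T +Met and 39.8, 41.4 and 36.5 CPM in HEK293T −Met+Hcy. R1 held 25.7, 22.3 and 26.0 CPM in +Met and 25.1, 28.7 and 25.7 CPM in −Met+Hcy. HEK293T −Met+Hcy was above the other 9 libraries, which overlapped. The medium gave 0.55 ± 0.16 in HEK293T (edgeR adjusted p = 0.0682), or 0.55 ± 0.12 without R1 −Met+Hcy replicate 3 (edgeR adjusted p = 0.00508). R1 against HEK293T in −Met+Hcy gave −0.58 ± 0.16 (edgeR adjusted p = 0.0364), or −0.64 ± 0.13 without that library (edgeR adjusted p = 0.00350). That call was lost with no filter, with only the libraries compared, and without any 1 HEK293T −Met+Hcy library or R1 −Met+Hcy replicate 1 or 2 (−0.61 to −0.50, edgeR adjusted p = 0.0555 to 0.182). A replicate block ended it too. In +Met that contrast was −0.18 with TMM and 0.17 with library totals, neither past the threshold. PRMT7, the type III enzyme, was at 65.8 to 78.2 CPM in HEK293T +Met and 52.0 to 64.8 CPM in HEK293T −Met+Hcy, with −0.61 ± 0.28 (edgeR adjusted p = 0.218), or −0.61 ± 0.12 without that library (edgeR adjusted p = 0.00253). In R1 it held 74.6 to 85.1 CPM in +Met and 67.1, 73.3 and 23.9 CPM in −Met+Hcy, and R1 against HEK293T in +Met was −0.17 with TMM and 0.19 with library totals.

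The first question of the design was what replacing methionine did in each line. In HEK293T, 1 of the 9 genes fell (PRMT1) and none rose at an adjusted p under 0.05, against 7.03% of all genes tested (4.25% higher and 2.78% lower). DESeq2 called 4 (PRMT1 and PRMT5 lower, PRMT6 and PRMT9 higher), against 13% of all genes. The split depended on the scaling: with TMM 730 genes of the whole table were higher and 477 lower, and with library totals 1794 and 213, when PRMT6 and PRMT9 were called higher and PRMT1 was not called. The median log2 fold change was −0.41 over the 9 genes and 0.03 over all genes. Without R1 −Met+Hcy replicate 3, 6 of the 9 passed (PRMT1, PRMT5, PRMT7 and WDR77 lower, PRMT6 and PRMT9 higher), against 27.7% of all genes (12.5% lower and 15.2% higher). CPM did not overlap between the media for 7 of the 9 genes, 4 lower and 3 higher in −Met+Hcy, against 48.4% of all genes (9.8% lower and 38.6% higher). In R1, edgeR called none of the 9 genes and DESeq2 called none (0.233% of all genes), while 2 (PRMT1 and PRMT5) had an unadjusted p under 0.05. The share called among all genes was 0.00583% (1 gene), and 3 of the 9 genes did not overlap in CPM between the media, all lower, against 10.1% of all genes (5.22% higher and 4.87% lower). Without R1 −Met+Hcy replicate 3 none of the 9 passed in R1 either, against 0.0176% of all genes.

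The second question was how the lines differed. In +Met, 1 of the 9 genes was called lower in R1 (PRMT1), against 10.2% of all genes (5.69% higher and 4.48% lower), and 5 without R1 −Met+Hcy replicate 3 (PRMT1, CARM1, PRMT5 and WDR77 lower, PRMT2 higher), against 32.7% (15.7% lower and 17% higher). DESeq2 called 3 (PRMT1, CARM1 and PRMT5, all lower), against 16.8%. In +Met too the split depended on the scaling, with 976 genes of the whole table higher and 769 lower under TMM, and 2251 and 357 under library totals. Under library totals PRMT2 was called higher in R1 and PRMT1 was not called. CPM of the lines did not overlap for 5 genes in +Met (2 higher and 3 lower in R1), against 47.2% of all genes (38.1% and 9.15%), and for 5 genes in −Met+Hcy, all lower in R1, against 31.7% (13.9% higher and 17.8% lower). In −Met+Hcy, 3 of the 9 were called lower in R1 (CARM1, PRMT6 and PRMT9), against 14% of all genes (7.2% higher and 6.76% lower), and 4 without R1 −Met+Hcy replicate 3, which added PRMT2 as higher, against 30.3% (15.7% higher and 14.6% lower). DESeq2 called 4, all lower (CARM1, PRMT5, PRMT6 and PRMT9), against 20.6%. The difference of the responses to the medium, R1 minus HEK293T, was called for none of the 9 genes by edgeR or DESeq2, against 0.0583% and 1.43% of all genes, and PRMT6 alone had an unadjusted p under 0.05. For PRMT6 that difference was −1.52 ± 0.54 (edgeR adjusted p = 0.396), and −1.11 ± 0.20 without R1 −Met+Hcy replicate 3 (edgeR adjusted p = 0.0188), when it was the only 1 of the 9 called, against 1.68% of all genes (0.398% higher and 1.28% lower).

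**Figure D4:**
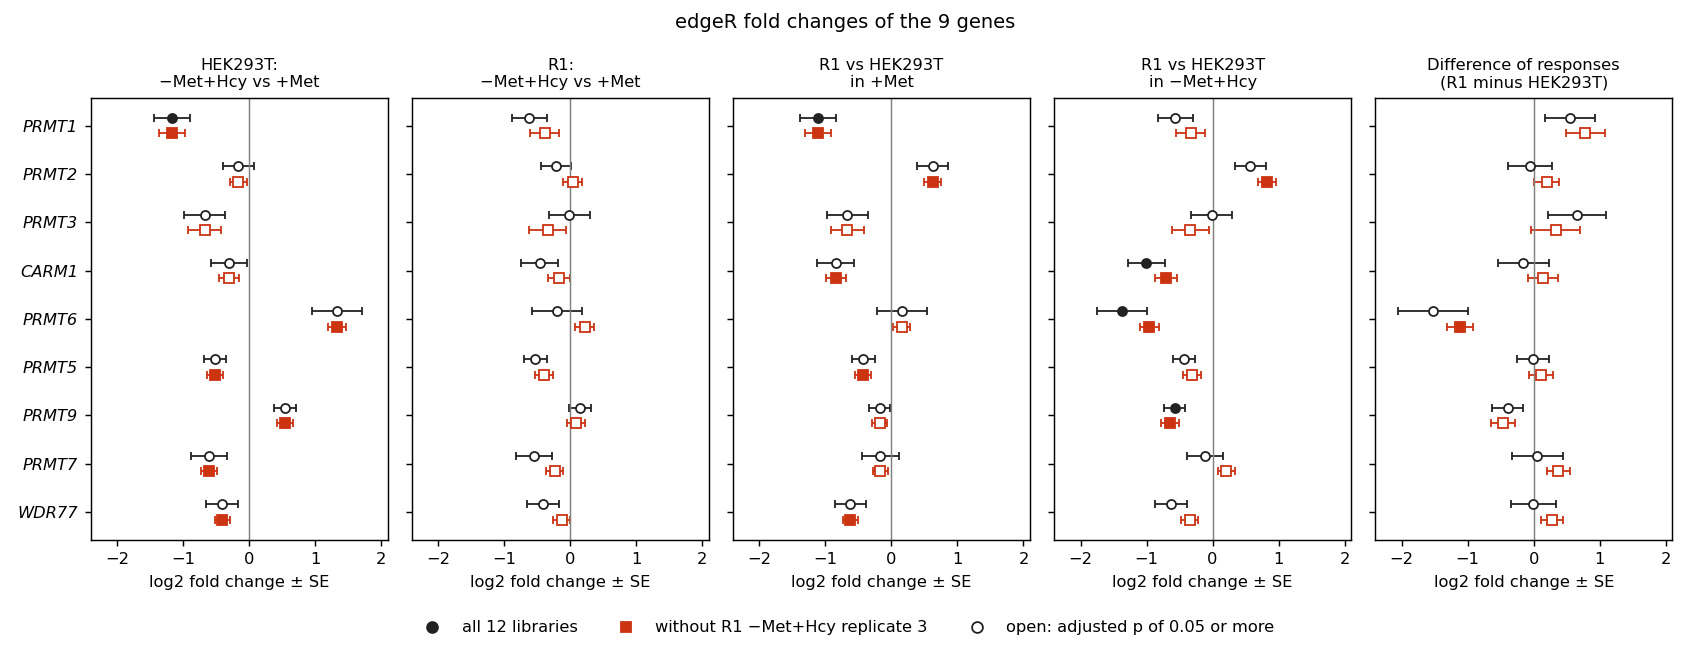
Log2 fold changes ± SE (horizontal axes) of the 9 genes (rows) in the 5 comparisons (panels), from edgeR with all 12 libraries (circles) and without R1 −Met+Hcy replicate 3 (squares). Filled marks have an adjusted p under 0.05. PRMT1 is at −1.17 in the first panel and −1.11 in the third, PRMT6 at 1.33 in the first and −1.37 in the fourth, and no mark of the second panel is filled.

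The proteins that work with these enzymes were described from lists of known partners, substrates, readers and removal enzymes (55 genes tested), with 4 genes of cofactor supply beside them. In HEK293T, 1 of the 55 rose and 1 fell with −Met+Hcy, with a median log2 fold change of −0.35, against 7.03% of all genes called. Without R1 −Met+Hcy replicate 3, 2 of 54 were called higher and 11 lower, against 27.7% of all genes. The gene that rose was BTG1, an antiproliferative protein that binds PRMT1, at 1.44 ± 0.25 (edgeR adjusted p = 0.00681). It held 15.4, 15.96 and 17.6 CPM in HEK293T +Met and 55.2, 51.4 and 55.7 CPM in HEK293T −Met+Hcy, and 22.9, 20.8 and 22.1 CPM in R1 +Met against 32.6, 31.9 and 12.9985 CPM in R1 −Met+Hcy. BTG1 was thus high in the group in which PRMT6 and PRMT9 were high, and its R1 −Met+Hcy replicate 3 was the lowest of the 12 libraries. RBMX, an RNA-binding substrate of type I enzymes, fell by 0.67 on the log2 scale (edgeR adjusted p = 0.0296). Of the 19 type I substrates, 18 had a negative sign in HEK293T, 1 of them past the threshold, with a median of −0.40. None of the 55 was called in R1 by edgeR or DESeq2, and 2 had an unadjusted edgeR p under 0.05 (PRMT8 and TDRD3). The PRMT8 counts lie almost all in R1 −Met+Hcy replicate 3. TDRD3 held 41.8 CPM in that library, 17.9 and 18.3 CPM in the other R1 −Met+Hcy libraries and 12.0 to 16.7 CPM in R1 +Met. In both lines the cofactor gene that rose was MAT2A, the enzyme that makes SAM, at 1.58 ± 0.21 in HEK293T (edgeR adjusted p = 0.00204) and 2.09 ± 0.22 in R1 (edgeR adjusted p = 0.00698). BTG1, RBMX and MAT2A in HEK293T and MAT2A in R1 were also called without R1 −Met+Hcy replicate 3.

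Between the lines in +Met, 2 of the 55 were higher in R1 and 3 lower, against 10.2% of all genes called, and in −Met+Hcy 4 were higher and 4 lower, against 14%. Without R1 −Met+Hcy replicate 3, 3 of 54 were higher and 14 lower in +Met, against 32.7%, and 5 were higher and 8 lower in −Met+Hcy, against 30.3%. The calls named next also passed without that library, except that of TAF15. TDRKH, a Tudor-domain reader of methylarginine, was at 10.7 to 17.1 CPM in the HEK293T libraries and at 41.4 to 53.5 CPM in the R1 libraries, a log2 fold change of 1.70 ± 0.17 in +Met (edgeR adjusted p = 0.000184) and 1.63 ± 0.17 in −Met+Hcy (edgeR adjusted p = 0.00017). DDAH1, which breaks down free asymmetric dimethylarginine, was 1.44 ± 0.27 higher in +Met (edgeR adjusted p = 0.00664) and 1.51 ± 0.27 higher in −Met+Hcy (edgeR adjusted p = 0.00355). FBL, the nucleolar RNA methyltransferase that PRMT1 methylates, was lower at −1.34 ± 0.20 in +Met (edgeR adjusted p = 0.00202) and −1.12 ± 0.20 in −Met+Hcy (edgeR adjusted p = 0.00385). RIOK1, an adaptor protein of PRMT5, was lower at −1.42 ± 0.26 in +Met (edgeR adjusted p = 0.00612), and the CARM1 substrate SNRPC at −1.27 ± 0.23 (edgeR adjusted p = 0.00593). Among the other genes called in −Met+Hcy were TAF15 and NCOA3 (higher) and RPS2 and BTG1 (lower), with log2 fold changes of 1.16, 1.003, −0.95 and −1.12. TAF15 was not called without R1 −Met+Hcy replicate 3 (0.91 ± 0.34, edgeR adjusted p = 0.0643). Of the 4 cofactor genes, MAT2A (−0.92 ± 0.21, edgeR adjusted p = 0.0167) and MAT2B, its regulatory subunit (−0.92 ± 0.27, edgeR adjusted p = 0.0494), were lower in R1 in +Met. None of the 6 PRMT5 substrates, among them the Sm proteins SNRPB, SNRPD1 and SNRPD3, passed in edgeR or DESeq2 with all libraries in any comparison, and 1 or 2 of them had an unadjusted edgeR p under 0.05 in each comparison but the medium in R1, where none had. Without R1 −Met+Hcy replicate 3, 2 of them were called lower with the medium in HEK293T and 3 lower in R1 in +Met. SMN1 and SMN2 are nearly identical, so the counts of these readers are uncertain.

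Correlations of log2 CPM across the 12 libraries describe which genes moved with the family. The libraries share 4 groups and TMM scaling, so these values are descriptions. PRMT6 was most like H1-10, a linker histone (r = 0.994, and 0.991 without R1 −Met+Hcy replicate 3), and DDIT4, a stress-induced inhibitor of mTORC1 (0.985 and 0.992). PRMT9 was most like USP10 (0.983 and 0.984) and ZC3H10 (0.983 and 0.988). PRMT1 was most like the ribosomal protein gene RPL7A (0.985 and 0.978) and the mitochondrial carrier SLC25A3 (0.983 and 0.987). CARM1 was most like the elongation factor EEF2 (0.991 and 0.988) and KHSRP (0.985 and 0.967). PRMT5 was most like the proteasome gene PSMC4 (0.979 and 0.970) and LRRC59 (0.966 and 0.967), and WDR77 most like WDR46 (0.991 and 0.972) and RPL10 (0.983 and 0.951). PRMT2 was most like AACS (0.986 and 0.986) and TADA3 (0.982 and 0.980), PRMT3 most like COPS4 (0.982 and 0.983) and MRPL22 (0.977 and 0.988), and PRMT7 most like CAMKK1 (0.989 and 0.962) and BAIAP2 (0.986 and 0.958). Within the family, PRMT1 and PRMT5 had r = 0.950 (0.928 without that library) and PRMT5 and WDR77 0.915 (0.889). PRMT6 and PRMT9 had 0.553 with all libraries and 0.840 without R1 −Met+Hcy replicate 3, and PRMT6 and PRMT7 went from 0.305 to −0.916. Ranked over the 11 other libraries, the leading 2 genes were the same for PRMT6 and PRMT9, and 1 of them stayed for PRMT3, CARM1 and PRMT5. For PRMT1, PRMT2, PRMT7 and WDR77 neither stayed, and WDR77 was then most like PDCD5 (0.980, and 0.409 with all 12) and CSNK2B (0.979 and 0.179).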

How the data were processed

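Total RNA of 12 libraries was sequenced, and per the study's methods the authors quantified reads with kallisto 0.48.0 on GRCh38. The deposited values are estimated counts that the authors summarised from transcripts to genes and made integers. The annotation release is not given in the sources used here. The 9 genes, the gene lists and the tests were chosen with earlier results of these data known. For each member, the 2 genes of highest correlation were named, among 11641 genes with a mean log2 CPM over 2 (prior count 2).

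Groups came from the sample titles. Genes with a summed count of at least 10 were fitted over all 12 libraries with edgeR 4.0.16 (R 4.3.3, TMM, quasi-likelihood F test, 8 residual degrees of freedom) and called at a Benjamini-Hochberg adjusted p under 0.05 over 17162 genes. The SE is the log2 fold change divided by the square root of F. Without R1 −Met+Hcy replicate 3 the common dispersion fell from 0.109 to 0.0349. CPM used column totals of 12664158 to 18771349. Of the tested rows, 651 repeated another row's gene name and counts (0.844% to 1.48% of each total), none of them a row of the 9 genes. No batch is given in the labels. All pairs of replicates differed by more than sampling noise. DESeq2 1.42.0, other scalings and filters, a replicate block and a GC correction (15857 genes with a GC value) were tried as alternatives. Single comparisons and each library left out were tried too. The fit was also run on simulated counts, with a dispersion near that found without R1 −Met+Hcy replicate 3. That run thus did not test the fit at the larger spread of all 12 libraries. Transcript lengths and exons came from GENCODE 44, and promoter sequences from RefSeq (GRCh38.p14). The values of 1 gene of the gene lists are not reported here.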

Additional observations from a re-analysis of the deposited data

Results flagged for a closer look

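PRMT6 differed between the lines in its response to the medium once R1 −Met+Hcy replicate 3 was left out, with a log2 difference (R1 minus HEK293T) of −1.11 ± 0.20 (edgeR adjusted p = 0.0188). With all 12 libraries it was −1.52 ± 0.54 (edgeR adjusted p = 0.396), and over all alternatives the adjusted p ran from 0.0188 to 0.738. Its level in that library, 13.5 CPM, was 21.0% of the mean of the other 2 R1 −Met+Hcy libraries, the lowest such share of the 9 genes. BTG1, a partner of PRMT1, differed in the same way, by −0.92 ± 0.18 without that library (edgeR adjusted p = 0.0251) and by −1.20 ± 0.35 with it (edgeR adjusted p = 0.327).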

How the results depend on the processing

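Numbers of the 9 genes called under other settings were as follows. For the medium in HEK293T (1 in the analysis reported), 4 were called by DESeq2, 2 with library totals, 5 with the GC trend removed, 7 with only its own libraries and 0 to 6 with 1 library left out. The replicate block gave 0 here, where the call of PRMT1 was lost (edgeR adjusted p = 0.0529), and 2 of 3 for the lines in −Met+Hcy, where that of PRMT9 was lost (edgeR adjusted p = 0.0798). For R1 against HEK293T in +Met (1), 3 were called by DESeq2, 5 with the GC trend removed, 4 with only its libraries and 0 to 5 with 1 library left out. With library totals the gene called there changed. PRMT1 was no longer called lower (edgeR adjusted p = 0.0878), and PRMT2 was called higher in R1 (0.98, edgeR adjusted p = 0.0330). For R1 against HEK293T in −Met+Hcy (3), 1 was called with library totals, 0 with only its libraries and 0 to 4 with 1 library left out. For the difference of responses (0), 0 to 1 were called with 1 library left out. Leaving out repeated rows was added after seeing the data and moved no such count by over 1.5 times. Deviations from the group mean were correlated between libraries of different groups. The correlations ran from −0.72 to 0.60 for same-numbered libraries and from −0.76 to 0.77 for differently numbered ones. With 3 libraries in a group these values cannot tell whether the numbers pair the samples. With the replicate block, 618 genes of the whole table were called for the medium in HEK293T, 1122 for the lines in +Met and 0 for the difference, against 1207, 1745 and 10 without it. Over the whole table DESeq2 called 2237, 2884 and 245 genes in these comparisons and 40 for the medium in R1, against 1 by edgeR, and leaving out R1 −Met+Hcy replicate 3 gave 4731, 5582, 287 and 3, and 5168 for the lines in −Met+Hcy, against 2395 with it. The GC trend removed gave 2543, 3146, 105 and 3, and 4081. Library totals gave 2007 for the medium in HEK293T and 32 for the difference, and only its libraries 5562, 4865 and, in −Met+Hcy, 498.

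Signs turned for log2 fold changes that were not past the threshold. With library totals these were PRMT2 for the medium in HEK293T (0.13), PRMT9 and PRMT7 for the lines in +Met (0.17 and 0.19) and PRMT7 for the difference (−0.24). With the GC trend removed they were CARM1 and PRMT9 for the medium in R1 (0.026 and −0.072) and, for the difference, PRMT2 (0.094), CARM1 (0.23), PRMT5 (0.15) and WDR77 (0.059). For the difference, PRMT7 gave −0.0021 with the replicate block, and WDR77 gave 0.0023 with DESeq2 and 0.0024 with RLE scaling. With 1 library left out, values for the medium in R1 ran from −0.45 to 0.035 for PRMT2, from −0.34 to 0.33 for PRMT3 and from −0.60 to 0.22 for PRMT6. For the lines in −Met+Hcy they ran from −0.34 to 0.20 for PRMT3 and from −0.34 to 0.21 for PRMT7. For the difference they ran from −0.28 to 0.20 for PRMT2, from −0.48 to 0.14 for CARM1, from −0.085 to 0.12 for PRMT5, from −0.18 to 0.37 for PRMT7 and from −0.17 to 0.28 for WDR77. The causes were not tested. Of 738 alternative values of single genes, 631 kept their sign and their side of the threshold.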
